A study of Mus musculus with 15 samples.

Results

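Loss of Trrap in cultured adult neural stem cells (aNSCs) was examined by comparing 5 libraries from Trrap Fl/Fl cultures with 5 libraries from Trrap Fl/+ cultures, all of them given 4-hydroxytamoxifen (4-OHT). These are 10 of the 15 libraries of the series, chosen by the labels for genotype and treatment, and 15036 of 53801 listed genes had enough counts to be tested. Every culture came from a 2-month-old mouse of the strain labelled C57BL6/J-129sv. Every mouse carried the Rosa26-CreERT2 transgene, which is active in nearly all cell types. In Fl/Fl cells both Trrap alleles are floxed, and in Fl/+ cells 1 is floxed and 1 is wild type. The label gives 5 days for the treatment, whereas the study's methods describe a shorter treatment followed by fresh medium. The Fl/Fl cultures came from mice 27, 28, 29, 37 and 39 and the Fl/+ cultures from mice 19, 24, 26, 35 and 36, so a library is named below by its mouse. Since 4-OHT can also recombine the floxed allele of Fl/+ cells, the comparison sets the loss of both alleles against the possible loss of 1. The other 5 libraries, untreated cultures of the same Fl/+ mice, served as reference levels only and entered no test.

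TRRAP is a very large adaptor protein without catalytic activity. It joins transcription factors to the SAGA and TIP60 histone acetyltransferase (HAT) complexes, which open chromatin at promoters by acetylating histones H3, H4 and H2A. The cells in question, taken from the subventricular zone and grown in suspension with EGF and bFGF, divide and can give rise to neurons, astrocytes and oligodendrocytes. RNA was measured as raw read counts per gene, and levels are given here as CPM, which are counts scaled to a common library size with TMM factors. A gene is said to have risen, fallen or changed where edgeR's quasi-likelihood test gave it an adjusted p under 0.05, and fold changes are log2 of Fl/Fl over Fl/+. Each group has 5 libraries (n = 5 and 5), levels given as one value with ± are means and SDs, and libraries are listed in the order of mice 27, 28, 29, 37 and 39 for Fl/Fl and 19, 24, 26, 35 and 36 for Fl/+. A bare number in parentheses after a gene, with or without its adjusted p, is its log2 fold change. Bulk RNA cannot tell fewer cells of a type from less RNA per cell.

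The 10 libraries held 25.7 M to 32.2 M counts in genes. The stem cell genes Sox2, Nes, Fabp7 and Egfr were expressed in each of them, whereas 8 of 10 markers of microglia and blood and 5 of 9 markers of endothelial and mural cells had too few counts to be tested. In a principal component analysis the leading component carried 39.9% of the variance and set the groups apart. On the second component (20.7%) the groups overlapped, and libraries Fl/Fl 37 and 39 and Fl/+ 19, 35 and 36 lay opposite the other 5. Sex-linked genes did not match the labels in every library. Library Fl/Fl 39 is labelled female but had 76.4 CPM of the Y-linked gene Kdm5d and 0.318 CPM of Xist, the RNA that silences an X chromosome in female cells, like the male libraries Fl/Fl 27 and 28. Library Fl/+ 36 is labelled male and had 56.2 CPM of Kdm5d together with 74.97 CPM of Xist, where the untreated culture of the same mouse had 5.99 CPM. Library Fl/Fl 29 had 33.8 CPM of Kdm5d, less than the 63.7 to 76.4 CPM of the other Fl/Fl libraries with Y-linked expression. Fl/Fl 37 was the only Fl/Fl library with almost no Y-linked expression (Kdm5d 0.118 CPM, Xist 340 CPM). Libraries Fl/+ 24 and 26 also had almost none (Kdm5d 0.064 and 0.04 CPM), so sex read from these genes was not balanced between the groups. Results were therefore also computed without Fl/Fl 39 and Fl/+ 36, and with sex read from Kdm5d as a covariate. Further settings, named where they changed a result, took the spread from all 15 libraries or set mice 19 to 29 apart from mice 35 to 39 by a covariate (mouse number).

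The protein-coding gene Trrap itself (ENSMUSG00000045482, on the plus strand of GRCm38 chromosome 5 from 144767732 to 144859778) had levels of 95.8, 117, 147, 90.6 and 84.3 CPM in Fl/Fl libraries 27, 28, 29, 37 and 39 and of 140.1, 208, 174, 167 and 143 CPM in Fl/+ libraries 19, 24, 26, 35 and 36. Library Fl/Fl 29 lay within the Fl/+ range, and the other 4 Fl/Fl libraries lay below it. Trrap thus differed by -0.64 on the log2 scale (SE 0.16, adjusted p = 0.0115), and the exact two-sided permutation p was 0.0238. Without Fl/Fl 29 the log2 fold change was -0.79. Untreated Fl/+ cultures were at 194 ± 14.6 CPM (mean ± SD, n = 5). The reads were counted over all exons, so transcripts that lack only the floxed segment still contribute to these levels.

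Of the 33 subunits of SAGA, TIP60 and their shared modules that were tested, 7 rose and 7 fell. Trrap itself was among those that fell, and the median log2 fold change was -0.08. The background is 31.7% of all 15036 genes called, 16.8% higher and 15.0% lower in Fl/Fl cultures, and a median of 0.02. The largest fall was that of Usp22, the deubiquitinase of SAGA, which had 147, 160.0, 161, 201 and 161 CPM in the Fl/Fl libraries and 321, 272, 307, 308 and 289 CPM in the Fl/+ libraries. The groups were well apart, with Fl/Fl 37 the highest of its group. Usp22 thus differed by -0.85 on the log2 scale (SE 0.09, adjusted p = 1.30e-04). Morf4l2, a MORF4-related subunit of TIP60, fell from 154 ± 21.0 to 87.7 ± 5.70 CPM (-0.81, adjusted p = 2.45e-04), and Brd8, the bromodomain subunit of TIP60, from 134 ± 9.36 to 95.8 ± 11.6 CPM (-0.49, adjusted p = 0.00280). Among the catalytic subunits, Kat2b, an acetyltransferase of SAGA, was slightly higher (0.27, adjusted p = 0.0290), a call lost under 10 of 20 alternative settings. The other SAGA acetyltransferase, Kat2a, was at 142 ± 14.4 against 126 ± 7.31 CPM (0.17, adjusted p = 0.129), Kat5, that of TIP60, at 80.1 ± 5.67 against 70.2 ± 4.09 CPM (0.19, adjusted p = 0.0526) and the TIP60 scaffold Ep400 at 139.7 ± 15.1 against 162 ± 13.9 CPM (-0.21, adjusted p = 0.0877), and none of them passed. Kat5 passed in 5 of 20 alternative settings, without Fl/Fl 37 or Fl/+ 26 among them, and Ep400 in 2, without Fl/Fl 28 or Fl/+ 26. Among 26 acetyltransferases, deacetylases and bromodomain readers outside these complexes, 3 rose and 4 fell (median -0.02, or 0.01 when scaled by library totals alone). Crebbp, Ep300 and Brd3 were lower by modest amounts (log2 fold changes of -0.42, -0.35 and -0.46). Hdac11, a deacetylase of the brain, and Sirt2, a tubulin deacetylase, were higher (0.82, adjusted p = 0.00363, and 0.87, adjusted p = 0.012). The Sirt2 groups overlapped, at 407 to 820 CPM in the Fl/Fl and 246 to 431 CPM in the Fl/+ libraries, with Fl/Fl 37 the highest.

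Across the transcriptome 4773 genes changed, 2520 of them higher and 2253 lower in Fl/Fl cultures, and 876 changed by at least 2-fold (535 higher and 341 lower). The median size of a change among the called genes was 0.55 on the log2 scale. If libraries were scaled only by their totals, 2846 genes were higher and 1953 lower, and the median over all genes moved to 0.05. Without adjustment 6462 genes had a p under 0.05, and for 3405 genes (22.6%) the libraries of the groups did not overlap. With Fl/Fl 39 and Fl/+ 36 both left out 3511 genes were called, 1704 higher and 1807 lower. Fewer genes were higher than lower also when Fl/Fl 29, Fl/Fl 37, Fl/+ 19, Fl/+ 35 or Fl/+ 36 alone was left out, so which direction held more genes depended on single libraries. For 1491 of the 4773 genes (31.2%) the mean of the untreated Fl/+ cultures lay nearer to the Fl/Fl than to the treated Fl/+ mean on the log2(CPM + 0.5) scale. This share is a description, since the genes were called with the treated Fl/+ libraries. The counts below are to be read against these shares. A list with close to 31.7% of its genes called differs little from the transcriptome as a whole in the share called. Counts in a single direction are set against 16.8% higher and 15.0% lower.

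**Figure D1:**
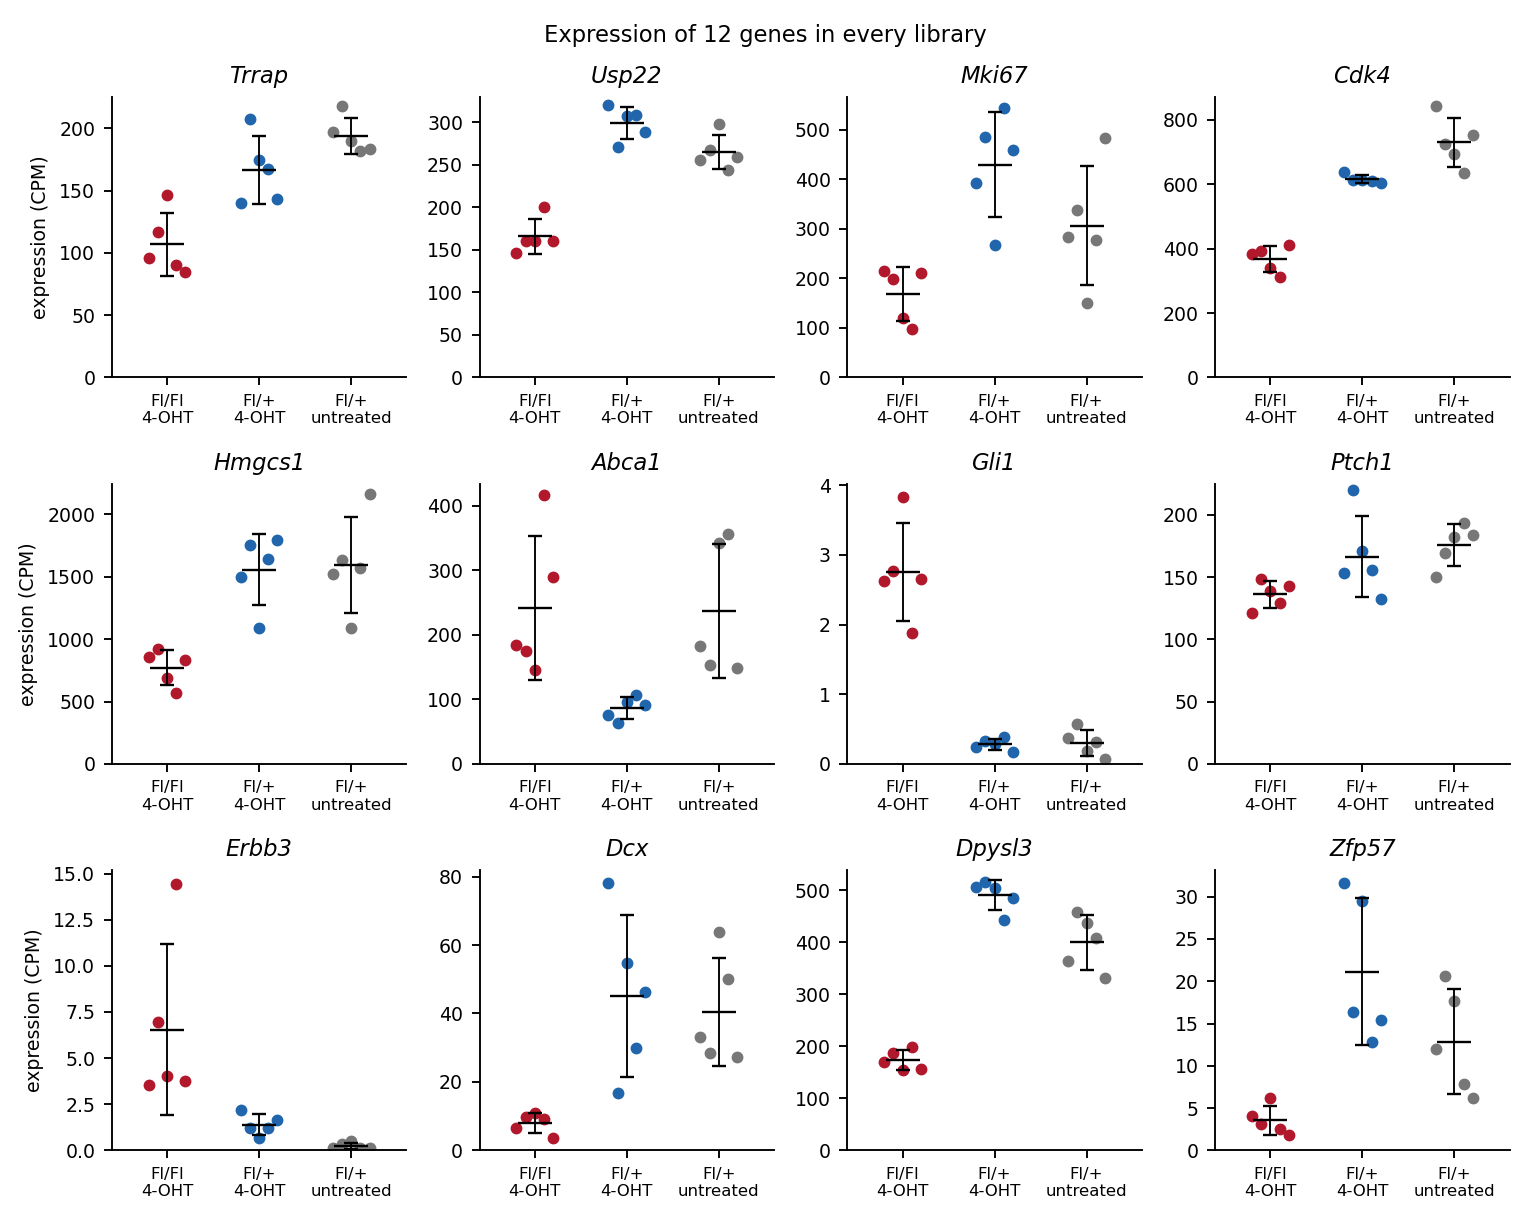
Expression in CPM (vertical axes, from 0) of 12 genes in every library, in the groups Fl/Fl 4-OHT, Fl/+ 4-OHT and Fl/+ untreated. Points are libraries, and horizontal marks and bars are the mean and SD of 5 libraries. For Usp22, Cdk4, Gli1, Dcx and Dpysl3 the Fl/Fl points lie apart from those of both Fl/+ groups, whereas the Abca1 points of the untreated Fl/+ group (mean 237 CPM) lie at the height of the Fl/Fl group (242 CPM).

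Most genes of mitosis fell. Of 44 genes of the mitotic spindle, kinetochore and mitotic entry, 38 fell and none rose, with a median log2 fold change of -0.88. The marker of cycling cells Mki67 was at 214, 199, 119, 98.6 and 211 CPM in the Fl/Fl libraries and at 394, 486, 267, 544 and 459 CPM in the Fl/+ libraries. Every Fl/Fl library was below every Fl/+ library, with Fl/Fl 29 and 37 the lowest of their group and Fl/+ 26 the lowest of the other. Mki67 thus differed by -1.35 on the log2 scale (SE 0.25, adjusted p = 0.00243). Ube2c, the ubiquitin-conjugating enzyme of the anaphase-promoting complex, fell from 112 ± 11.9 to 43.8 ± 13.1 CPM (-1.35, adjusted p = 6.07e-04). Cdc25c, the phosphatase that activates Cdk1 at mitotic entry, fell from 27.0 ± 3.96 to 9.72 ± 3.13 CPM (-1.47, adjusted p = 7.67e-04), the kinetochore motor Cenpe from 79.1 ± 15.2 to 32.8 ± 10.4 CPM (-1.27, adjusted p = 0.00173) and the mitotic kinase Plk1 from 87.3 ± 12.4 to 44.6 ± 16.3 CPM (-0.97, adjusted p = 0.00714). Cdk1 itself did not pass the test, with 120.3, 114, 78.2, 64.2 and 139 CPM in the Fl/Fl and 144, 152, 107, 162 and 157 CPM in the Fl/+ libraries (-0.49, adjusted p = 0.0809), and it passed in 4 of 20 alternative settings (without Fl/Fl 39, without Fl/+ 26, with sex read from Kdm5d and by the DESeq2 Wald test). The number of mitosis genes called lay between 34 and 41 when single libraries were left out, and was 39 without both Fl/Fl 39 and Fl/+ 36. The size differed between cultures, with a median over these genes of -0.63, -0.75, -1.25, -1.60 and -0.43 in Fl/Fl libraries 27, 28, 29, 37 and 39, each relative to the Fl/+ mean on the log2 scale, and of 0.01, 0.15, -0.43, 0.15 and 0.14 in Fl/+ libraries 19, 24, 26, 35 and 36. Library Fl/+ 26 was thus at the level of Fl/Fl 39, so on this measure the groups overlapped.

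Few genes of DNA replication passed the test, although nearly all had a fold change below 0. Of 27 such genes, 26 had a fold change below 0, with a median of -0.37. The 2 that passed are 7.41% of the list, below the 31.7% of all genes. The clear exception was Rrm2, the regulated subunit of ribonucleotide reductase, which supplies deoxynucleotides in S phase. Rrm2 was at 69.1, 50.3, 39.9, 38.3 and 72.5 CPM in the Fl/Fl and 154, 126, 97.1, 171 and 173 CPM in the Fl/+ libraries, and all Fl/Fl values were below all Fl/+ values. Rrm2 thus differed by -1.42 on the log2 scale (SE 0.22, adjusted p = 8.60e-04). The helicase subunit Mcm2 was at 141 ± 43.0 against 154 ± 22.9 CPM (-0.13, adjusted p = 0.635), and the sliding clamp Pcna at 70.1 ± 17.2 against 87.8 ± 7.54 CPM (-0.33, adjusted p = 0.115). Pcna passed without Fl/Fl 39, without both Fl/Fl 39 and Fl/+ 36, and with sex read from Kdm5d. The count of replication genes was 9 without Fl/Fl 39, 5 without Fl/Fl 39 and Fl/+ 36, 4 without Fl/+ 26, and 17 with sex read from Kdm5d as a covariate, and it was 1 without any single one of Fl/Fl 28, 29 or 37 or Fl/+ 19, 35 or 36. Library medians of the replication genes were -0.17, -0.25, -0.71, -0.86 and 0.11 in Fl/Fl libraries 27, 28, 29, 37 and 39 and 0.17, -0.16, -0.42, 0.16 and 0.25 in Fl/+ libraries 19, 24, 26, 35 and 36, so the groups overlapped. Homologous recombination and Fanconi genes, which are also expressed in S phase, had 1 of 20 lower (Blm, -0.68, adjusted p = 0.0218) and a median of -0.27 (-0.14 without Fl/Fl 37), and the count was 2 without Fl/Fl 37 or 39, 3 without Fl/+ 26, 6 with sex read from Kdm5d and 0 when the spread was estimated from all 15 libraries, with which Blm lost its call. Of the 20 genes 3 had an unadjusted p under 0.05, and the DESeq2 Wald test called 3. Brca1 did not pass (-0.46, adjusted p = 0.160), but did with sex read from Kdm5d.

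The promoters of these lists differ in their sequence, and a few are shown for this reason. The RefSeq promoter windows used (GRCm38.p6) run from 250 bases before to 50 bases after a gene's start and number 32851 for 27025 genes. The element TTTGAA, read on either strand, is the core of the cell cycle element found in promoters of late cell cycle genes. It was in 26 of 36 windows of the mitosis list (72.2%), in 3 of 24 windows of the replication list (12.5%), in 17.9% of all windows and in 11.7% of the windows of genes tested here. CCAAT, the site of the factor NF-Y, was in 77.8%, 66.7%, 37.4% and 37.6% of these windows. TTTCCCGC, an E2F site, was in 0 of the 36 mitosis windows, in 16.7% of the replication windows, in 1.07% of all and in 1.92% of those of genes tested. The stretches below, from 120 bases before to 20 bases after the start and written 5′ to 3′ on the strand of the gene, show CCAAT and TTTGAA and their reverse complements (ATTGG and TTCAAA) in capitals. Ube2c, Mki67 and Cdk1 are mitosis genes, and Rrm2 and Pcna replication genes.
Ube2c, chr2:164769809-164769948, plus strand: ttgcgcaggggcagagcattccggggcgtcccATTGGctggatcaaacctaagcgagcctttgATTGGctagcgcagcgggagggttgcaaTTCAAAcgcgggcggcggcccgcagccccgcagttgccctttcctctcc
Cdk1, chr10:69352893-69353032, minus strand: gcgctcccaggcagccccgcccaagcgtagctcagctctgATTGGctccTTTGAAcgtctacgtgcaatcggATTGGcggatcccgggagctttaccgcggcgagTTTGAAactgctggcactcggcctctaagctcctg
Mki67, chr7:135716360-135716499, minus strand: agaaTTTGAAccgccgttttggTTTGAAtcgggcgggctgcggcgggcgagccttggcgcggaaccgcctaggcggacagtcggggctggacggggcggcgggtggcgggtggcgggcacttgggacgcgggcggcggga
Rrm2, chr12:24708134-24708273, plus strand: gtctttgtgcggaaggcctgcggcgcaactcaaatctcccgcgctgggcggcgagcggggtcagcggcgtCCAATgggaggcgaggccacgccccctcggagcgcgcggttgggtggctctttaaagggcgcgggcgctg
Pcna, chr2:132253161-132253300, minus strand: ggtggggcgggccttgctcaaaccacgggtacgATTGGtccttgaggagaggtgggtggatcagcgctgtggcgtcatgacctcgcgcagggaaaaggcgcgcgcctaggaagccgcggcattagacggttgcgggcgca
TTTGAA stood in the stretches of the 3 mitosis genes and in neither of the others. Rrm2, whose fall was as large as that of the mitosis genes, had CCAAT but not TTTGAA in the stretch shown. A match is a stretch of letters and was not tested for binding.

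**Figure D2:**
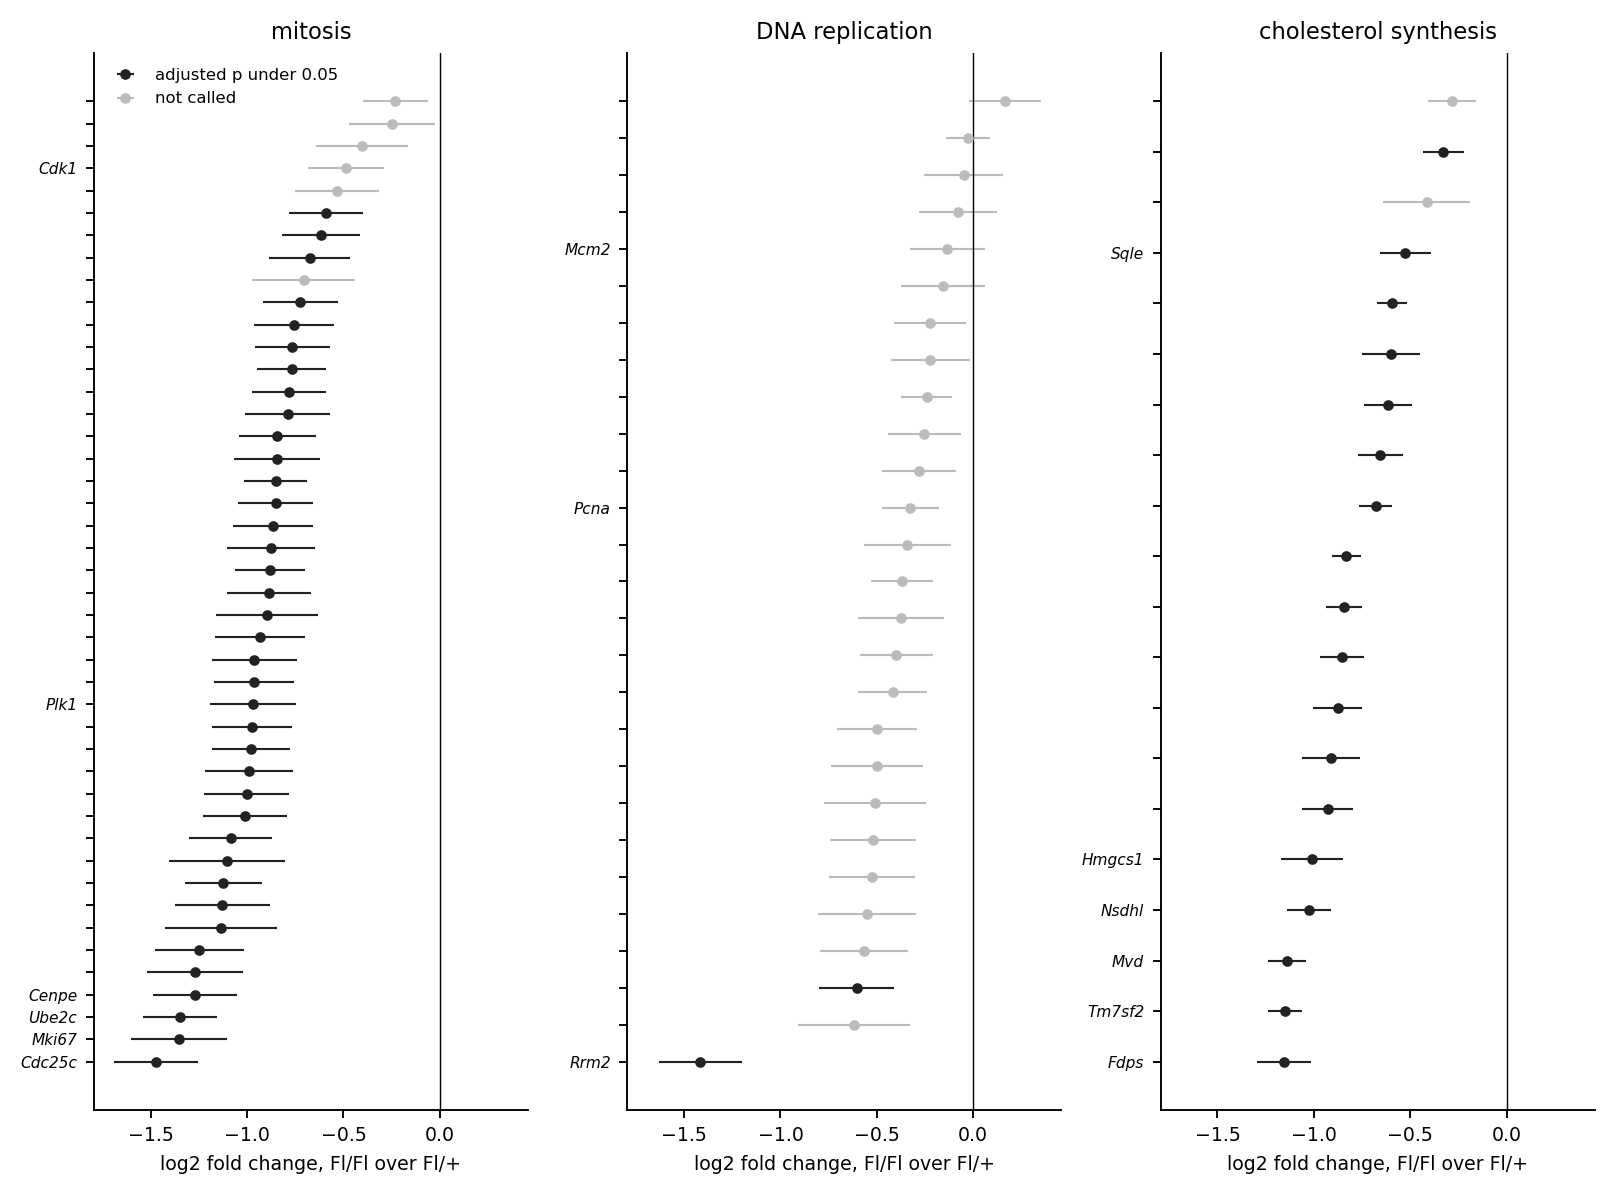
Log2 fold change of Fl/Fl over Fl/+ (horizontal axes) for each tested gene of the mitosis, DNA replication and cholesterol synthesis lists, with bars of 1 standard error and names for the genes described in the text. Black points are genes called by edgeR at an adjusted p under 0.05, and grey points are the others. All 44 mitosis genes and all 20 cholesterol synthesis genes lie left of 0, and the replication genes lie nearer to it, apart from Rrm2.

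Regulators of the cell cycle outside mitosis were mixed. Of 25 G1 cyclins, CDK inhibitors and E2F or RB family members, 1 rose and 8 fell (median -0.30). Cdk4, the kinase partner of the D cyclins, was at 383, 394, 341, 311 and 410.3 CPM in the Fl/Fl and 639, 613, 615, 611 and 604 CPM in the Fl/+ libraries, with a wide gap between the groups. Cdk4 thus differed by -0.74 on the log2 scale (SE 0.08, adjusted p = 1.80e-04). E2f7, a repressor of the E2F family, fell from 19.4 ± 2.37 to 5.13 ± 1.44 CPM (-1.92, adjusted p = 1.17e-04) and E2f2 from 22.8 ± 3.16 to 12.4 ± 3.11 CPM (-0.88, adjusted p = 0.00376). The 1 gene that rose was cyclin D1, Ccnd1, at 2562 ± 412 against 1731 ± 273 CPM (0.57, adjusted p = 0.0117), a call that was lost with Fl/Fl 39 and Fl/+ 36 both left out and with the spread estimated from all 15 libraries. E2f1, Cdkn1a (p21) and Cdkn2a did not pass, with log2 fold changes of 0.22, -0.28 and -0.23. Of 27 kinesin and dynein genes, 3 rose and 10 fell (median -0.26). Those with the largest falls move chromosomes and spindles, among them Kif22 (-1.31, adjusted p = 0.00110), Kif18b (-1.17, adjusted p = 0.00126) and Kifc1 (-0.96, adjusted p = 0.00188), and none of this list is in the mitosis list. Kif1a and Kif5c, motors of axonal transport, were at 0.12 and -0.26 and did not pass.

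Of 20 p53 targets none rose and 3 fell (median -0.06, or -0.12 without Fl/+ 36, and 5 called with the mouse number as a covariate), the largest fall being that of the kinase Plk2, from 127 ± 27.1 to 67.6 ± 7.28 CPM (-0.91, adjusted p = 8.33e-04). Untreated Fl/+ cultures had 70.3 ± 14.6 CPM of Plk2, close to the Fl/Fl level. Mdm2 and Ccng1 were at 0.04 and 0.02 and did not pass. Among 19 apoptosis regulators 1 rose and 3 fell, and 6 were called without Fl/+ 26. Apaf1, the scaffold that activates caspase-9, had 31.2, 32.2, 26.3, 25.5 and 31.7 CPM in the Fl/Fl and 62.3, 68.4, 53.8, 60.1 and 62.2 CPM in the Fl/+ libraries, without overlap. Apaf1 thus differed by -1.06 on the log2 scale (SE 0.09, adjusted p = 5.51e-05). Casp6 (-0.59, adjusted p = 0.00461), a caspase that carries out apoptosis, also fell, and Bcl2, which blocks it, rose (0.42, adjusted p = 0.00972). The Bcl2 call was lost when the spread was estimated from all 15 libraries.

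The sterol pathway was lower almost throughout. Cholesterol is made in the cell from acetyl-CoA through HMG-CoA, mevalonate and squalene, and the factor SREBP2 turns on both this pathway and the uptake of sterols from outside. Of 20 genes of cholesterol synthesis 18 fell and none rose, with a median of -0.84. Hmgcs1, which forms HMG-CoA, was at 857, 918, 692, 567 and 831 CPM in the Fl/Fl libraries and at 1498, 1755, 1092, 1644 and 1797 CPM in the Fl/+ libraries, all Fl/Fl values being below all Fl/+ values. Hmgcs1 thus differed by -1.01 on the log2 scale (SE 0.16, adjusted p = 0.00111). Several downstream enzymes fell by like amounts. Mvd, the mevalonate diphosphate decarboxylase, fell from 102 ± 11.8 to 46.3 ± 4.93 CPM (-1.14, adjusted p = 5.30e-05), Nsdhl from 167 ± 17.0 to 82.1 ± 12.4 CPM (-1.02, adjusted p = 1.84e-04) and Tm7sf2, a sterol reductase, from 43.0 ± 1.71 to 19.4 ± 2.10 CPM (-1.15, adjusted p = 3.50e-05). Fdps, which forms farnesyl diphosphate, fell from 21.0 ± 2.51 to 9.44 ± 1.61 CPM (-1.15, adjusted p = 2.71e-04). Its level is uncertain, since the gene has near-identical processed copies and reads that match several places were not counted. Sqle, the squalene epoxidase, fell by 0.52 with overlapping groups, from 332 ± 49.7 to 231 ± 35.1 CPM. Between 17 and 19 of the 20 genes were called when single libraries were left out. The untreated Fl/+ cultures, from the same mice as the controls, had 1595 ± 384 CPM of Hmgcs1.

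Genes of sterol handling moved in both directions. Of 17 tested genes that sense, take up or export sterols, 7 rose and 6 fell, 76.5% in all, and the count was 8 without Fl/Fl 39 and Fl/+ 36. Stard4, a carrier of cholesterol within the cell, fell from 124 ± 23.6 to 58.8 ± 15.4 CPM (-1.07, adjusted p = 0.00227). Abca1, which exports cholesterol to apolipoproteins, was at 184, 174, 145, 416 and 289 CPM in the Fl/Fl and 75.8, 62.7, 96.3, 107 and 90.6 CPM in the Fl/+ libraries. The groups did not overlap, and Fl/Fl 37 stood highest. Abca1 thus differed by 1.48 on the log2 scale (SE 0.27, adjusted p = 0.00251). In untreated Fl/+ cultures Abca1 was at 237 ± 104 CPM, so the treated Fl/+ group was the low one of the 3. Srebf2, which encodes SREBP2, was at 453 ± 50.5 against 557 ± 63.5 CPM (-0.30, adjusted p = 0.0441), and this call was lost under 11 of 20 alternative settings. Fatty acid metabolism was nearer to the background in the share called (36.4%), with 1 of 22 genes higher and 7 lower. The count was 5 without Fl/Fl 28 or Fl/+ 35 and 4 without both Fl/Fl 39 and Fl/+ 36. All 7 that fell act in lipid synthesis, among them Elovl6, which elongates fatty acids (-1.25, adjusted p = 2.42e-04), Acly, which provides cytosolic acetyl-CoA (-0.76, adjusted p = 4.85e-04), Acss2 (-0.72, adjusted p = 0.0185) and the fatty acid synthase Fasn (-0.50, adjusted p = 0.00408), and the 1 that rose was Hadha of fatty acid oxidation (0.25, adjusted p = 0.0347, a call also lost under 10 of 20 settings). The desaturase gene Scd1 (-0.26) and the oxidation gene Cpt1a (0.09) did not pass.

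Promoters of the sterol genes are shown because nearly the whole list moved together. CCAAT was in 14 of 18 windows of the cholesterol synthesis list (77.8%, against 37.4% of all windows), and GGGCGG, the GC box bound by Sp factors, in 15 of 18 (83.3%), against 35.7% of all windows and 61.8% of the windows of genes tested here. TCACNCCAC, a form of the sterol regulatory element, was in 1 of 18 (5.56%), against 1.24% of all windows and 1.12% of those of genes tested. CCAAT and GGGCGG were frequent in lists with few called genes too, CCAAT in 13 and GGGCGG in 10 of 14 windows of endoplasmic reticulum chaperones, and in 15 and 18 of 20 windows of circadian clock genes. In the mitosis list, GGGCGG was in 83.3% of the windows. Among all called genes it was in 58.1% of the windows of genes that rose and 69.8% of those of genes that fell. CCAAT and GGGCGG and their reverse complements (ATTGG and CCGCCC) are in capitals.
Hmgcs1, chr13:119690231-119690370, plus strand: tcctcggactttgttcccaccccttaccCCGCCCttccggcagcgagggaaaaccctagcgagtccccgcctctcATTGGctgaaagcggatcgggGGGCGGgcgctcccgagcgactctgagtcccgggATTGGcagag
Mvd, chr8:122443403-122443542, minus strand: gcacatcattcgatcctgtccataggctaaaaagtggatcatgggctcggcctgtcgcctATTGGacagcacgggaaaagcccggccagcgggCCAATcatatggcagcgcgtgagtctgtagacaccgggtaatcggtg
Nsdhl, chrX:72918401-72918540, plus strand: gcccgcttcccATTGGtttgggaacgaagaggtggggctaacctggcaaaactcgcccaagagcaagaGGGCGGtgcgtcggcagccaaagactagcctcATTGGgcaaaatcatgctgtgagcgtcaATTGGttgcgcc
Hmgcs1 and Nsdhl held both motifs in the stretch shown and Mvd held CCAAT alone.

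Of 29 genes of the Myc family and of ribosome biogenesis, 15 fell and 1 rose (median -0.34). The 1 that rose was Myc itself, at 268, 274, 267, 230.3 and 319 CPM in the Fl/Fl and 193, 174, 201, 199 and 169 CPM in the Fl/+ libraries, without overlap. Myc thus differed by 0.54 on the log2 scale (SE 0.09, adjusted p = 0.00159). Nop56, a core protein of box C/D small nucleolar particles, fell from 71.3 ± 9.51 to 44.7 ± 4.68 CPM (-0.67, adjusted p = 0.00101), Gnl3 (nucleostemin) from 70.3 ± 15.1 to 42.3 ± 4.23 CPM (-0.73, adjusted p = 0.00313) and Polr1c, a subunit shared by RNA polymerases I and III, from 60.8 ± 5.12 to 40.6 ± 3.66 CPM (-0.58, adjusted p = 6.25e-04). Nucleolin, Ncl, and Mycn did not pass (-0.13 and -0.18). Of 22 genes of the integrated stress response and serine synthesis 2 rose and 6 fell, with 5 called without Fl/+ 36 and 4 without both Fl/Fl 39 and Fl/+ 36. Atf4, its central factor, fell from 202 ± 22.6 to 150.3 ± 16.0 CPM (-0.43, adjusted p = 0.00667) and the glycyl-tRNA synthetase Gars from 213 ± 14.6 to 142 ± 12.7 CPM (-0.59, adjusted p = 4.57e-04), while the serine synthesis enzyme Phgdh was at -0.03. Of 21 amino acid and neurotransmitter transporters 2 rose and 5 fell. The largest falls were in Slc7a1, a carrier of arginine and lysine, from 90.1 ± 13.2 to 35.4 ± 5.85 CPM (-1.35, adjusted p = 1.17e-04), the taurine carrier Slc6a6 (-1.10, adjusted p = 0.00334, with 38.3 ± 13.2 CPM in untreated Fl/+ against 45.8 ± 13.8 CPM in Fl/Fl cultures) and the glutamine carriers Slc38a2 (-0.90, adjusted p = 0.00208) and Slc38a1 (-0.83, adjusted p = 0.00628). Of 16 endoplasmic reticulum chaperones and regulators only Xbp1 passed, and it fell (-0.48, adjusted p = 0.00215), with a list median of 0.06, 2 called without Fl/Fl 27, 3 without Fl/Fl 37 and 4 with the mouse number as a covariate. The median was -0.04 without Fl/Fl 37.

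Metabolic lists differed from one another. Of 26 glycolysis genes and hypoxia targets 1 rose and 10 fell (median -0.49), but the number called was 6 without Fl/Fl 27 or with the spread of all 15 libraries, and 7 without Fl/Fl 39, without Fl/+ 24 or without both Fl/Fl 39 and Fl/+ 36. Hk2, a hexokinase, was at 18.2, 41.1, 48.0, 49.4 and 21.4 CPM in the Fl/Fl and 63.6, 107, 80.1, 67.3 and 67.9 CPM in the Fl/+ libraries, without overlap (-1.12, adjusted p = 0.0112). The lactate exporter Slc16a3 fell from 124 ± 49.4 to 45.8 ± 22.4 CPM (-1.44, adjusted p = 0.0123, a call lost with the spread of all 15 libraries). Untreated Fl/+ cultures had only 14.6 ± 7.56 CPM of Hk2 and 16.6 ± 17.0 CPM of Slc16a3, so the Fl/Fl means lay between those of the Fl/+ groups. Car9 and Vegfa, hypoxia targets that vary widely between the cultures, did not pass (-0.09, adjusted p = 0.911, and -0.47, adjusted p = 0.379). Of 27 nuclear genes of the respiratory chain 3 rose and 3 fell, and 3 were called with Fl/Fl 39 and Fl/+ 36 both left out or with no filter on low counts. Atp5b, a subunit of the ATP synthase, fell (-0.45, adjusted p = 0.00493) and Sdha of complex II rose (0.28, adjusted p = 0.00875, a call lost with the spread of all 15 libraries). Of 13 mitochondrially encoded genes 7 were tested and 1 rose. The count was 3 with labelled sex as a covariate, 2 by the DESeq2 Wald test, and 0 when Fl/Fl 27, Fl/Fl 29 or Fl/+ 26 was left out. The untested ones had at most 1 count in any of the 10 libraries. Reads that match several places were not counted, and their part in this was not tested. Of 22 genes of the antioxidant response and NADPH supply 3 rose and 3 fell, with large changes for some of them, and 10 were called by the DESeq2 Wald test or with the mouse number as a covariate. Hmox1, the haem oxygenase, rose from 70.2 ± 11.9 to 178 ± 43.0 CPM, without overlap. Hmox1 thus differed by 1.34 on the log2 scale (SE 0.16, adjusted p = 2.87e-04). Nqo1, a quinone reductase, rose from 3.77 ± 0.643 to 9.02 ± 1.38 CPM (1.26, adjusted p = 3.80e-04), and Idh1, which makes cytosolic NADPH, fell from 403 ± 36.0 to 189 ± 11.2 CPM (-1.09, adjusted p = 2.74e-05). Of 25 lysosome and autophagy genes 6 rose and 1 fell (median 0.22, or 0.12 without Fl/Fl 37), with 3 called without Fl/+ 19 or without both Fl/Fl 39 and Fl/+ 36, and 13 with sex read from Kdm5d. Hexa, which degrades gangliosides, rose from 124 ± 19.7 to 203 ± 9.34 CPM (0.72, adjusted p = 6.01e-04) and the membrane protein Lamp1 from 754 ± 45.0 to 996 ± 109.6 CPM (0.40, adjusted p = 0.00600). Tfeb, the main transcription factor for lysosomal genes, did not pass (-0.32, adjusted p = 0.148), but did, as a fall, without Fl/Fl 37.

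**Figure D3:**
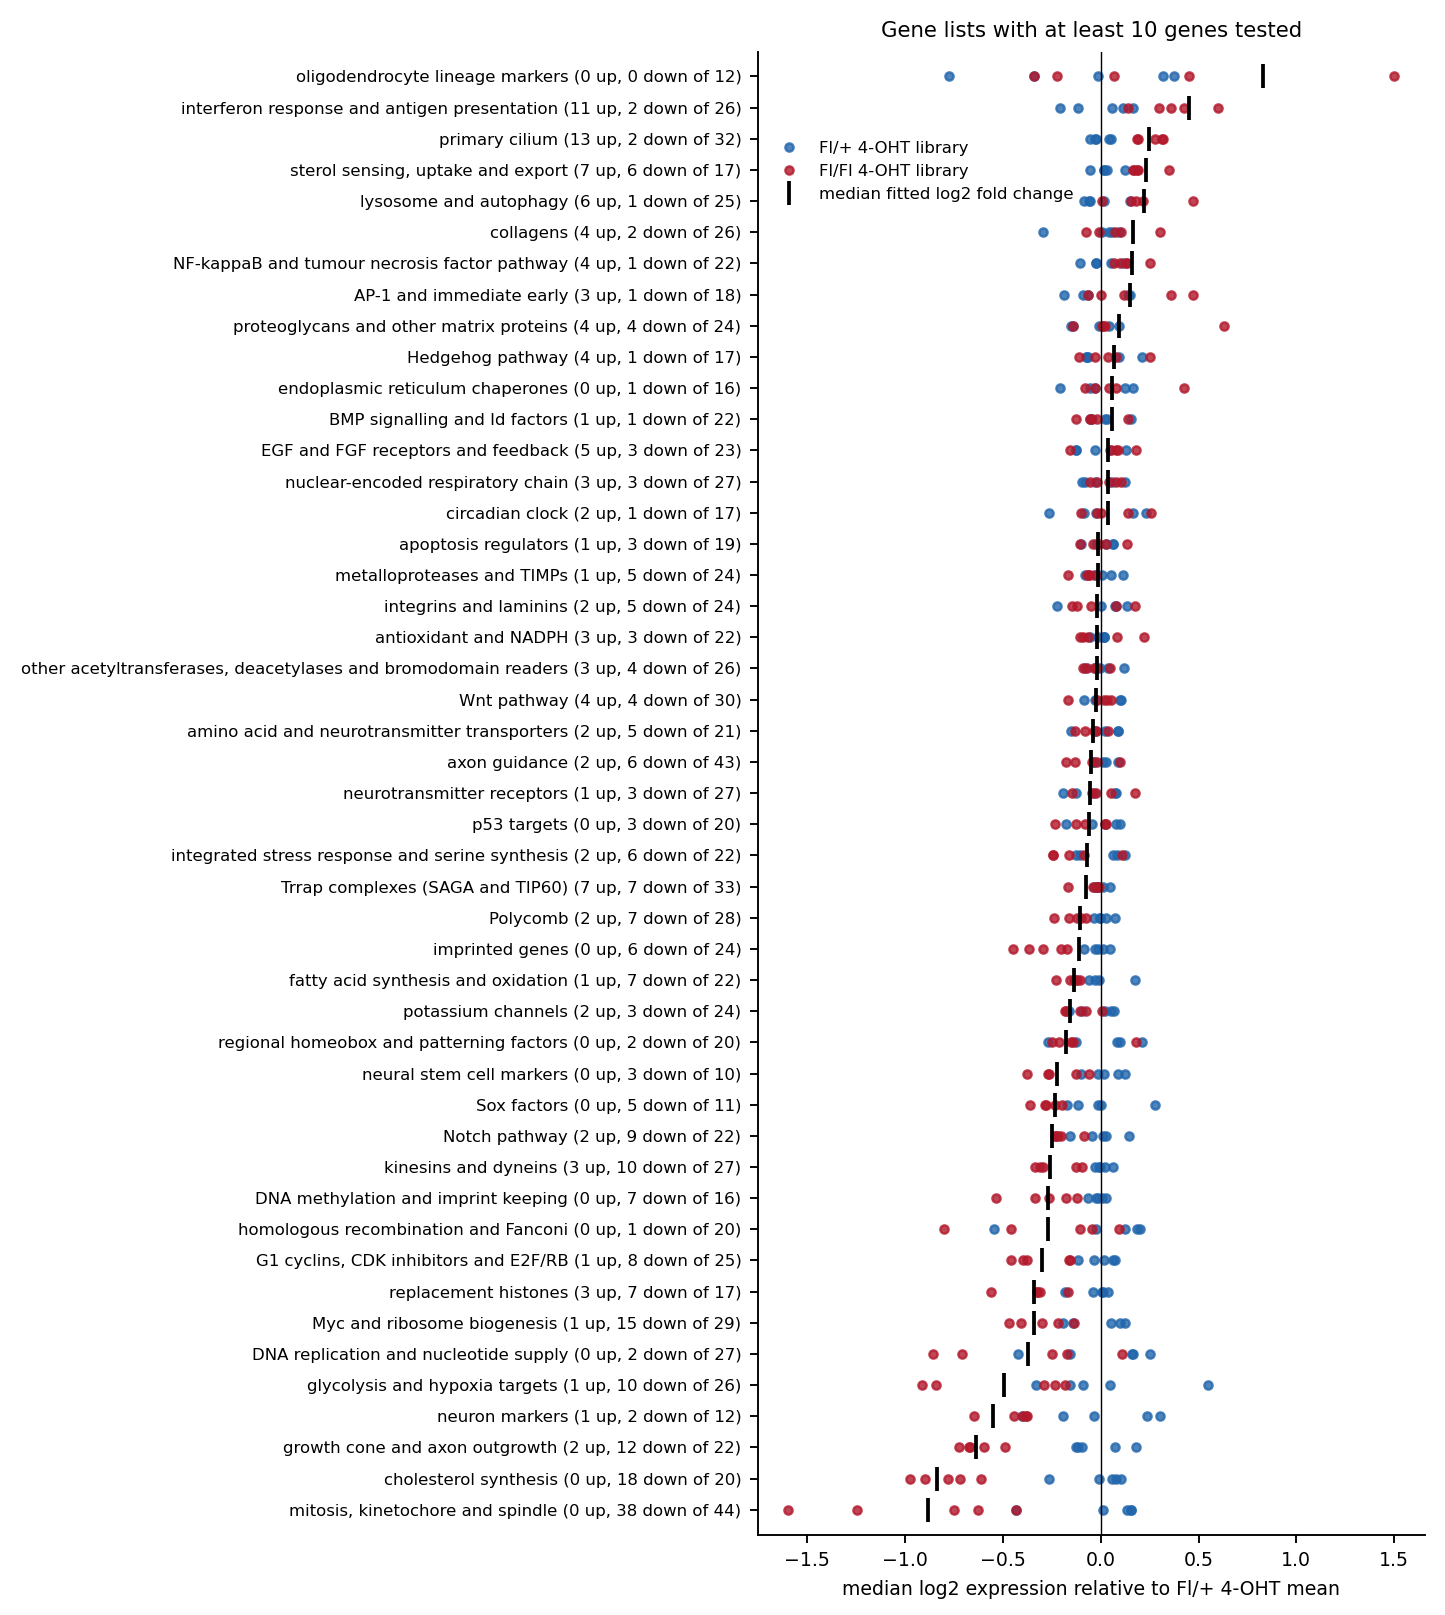
Gene lists with at least 10 genes tested, ordered by their median log2 fold change. Each point is a library, placed by the median over the list's genes of its log2 expression relative to the Fl/+ 4-OHT mean. Black marks are the median of the fitted fold changes, and the labels give the number of genes called higher (up) and lower (down). Mitosis, cholesterol synthesis and growth cone lists lie farthest to the left, and in the oligodendrocyte list 1 Fl/Fl library lies far to the right of the others.

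In Hedgehog signalling the target gene Gli1 and the ligand gene Shh rose, whereas the receptor genes Ptch1 and Smo did not pass the test. The ligand SHH binds the receptor PTCH1, which releases SMO and lets GLI proteins act, and Gli1 and Ptch1 are standard targets. Gli1 (chromosome 10, 127329882 to 127341974) was at 2.63, 2.78, 3.83, 1.89 and 2.65 CPM in the Fl/Fl libraries and at 0.240, 0.322, 0.282, 0.386 and 0.177 CPM in the Fl/+ libraries. All Fl/Fl values were several times higher than any Fl/+ value. Gli1 thus differed by 3.27 on the log2 scale (SE 0.27, adjusted p = 4.56e-05). Untreated Fl/+ cultures were at 0.301 ± 0.189 CPM. The ligand gene Shh was at 2.95, 3.96, 3.36, 4.63 and 3.5 CPM in the Fl/Fl and 0.617, 2.32, 1.53, 1.12 and 0.213 CPM in the Fl/+ libraries, without overlap (1.66, adjusted p = 0.0172). Ptch1, however, was at 136 ± 10.9 against 167 ± 32.8 CPM (-0.29, adjusted p = 0.0917) and Smo at 137 ± 12.8 against 128 ± 13.6 CPM (0.10, adjusted p = 0.447), and neither passed. Without Fl/+ 36 Ptch1 passed, as a fall. Gpr161, a ciliary receptor that holds the pathway off, fell from 39.8 ± 5.32 to 19.7 ± 0.709 CPM (-1.01, adjusted p = 1.03e-04). In the whole list of 17 tested genes 4 rose and 1 fell (29.4%), and 2 were called where at least 10 counts in every library were asked for, a filter that Gli1 and Shh did not meet.

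Most of the called genes of the primary cilium, the organelle in which Hedgehog signals are received, rose. Of 32 tested, 13 rose and 2 fell (46.9%), with a median of 0.25, and 13 to 15 were called when single libraries were left out. Tctn2, a protein of the ciliary transition zone, was at 57.4, 61.5, 67.6, 55.2 and 66.3 CPM in the Fl/Fl and 30.1, 40.8, 32.3, 32.0 and 26.8 CPM in the Fl/+ libraries, without overlap. Tctn2 thus differed by 0.93 on the log2 scale (SE 0.11, adjusted p = 2.46e-04). Tctn1 of the same complex rose from 22.0 ± 2.61 to 34.4 ± 3.41 CPM (0.64, adjusted p = 0.00111), Bbs1 of the BBSome from 28.9 ± 2.6 to 47.2 ± 4.95 CPM (0.71, adjusted p = 4.19e-04) and Kif17, a ciliary and dendritic motor, from 6.57 ± 1.63 to 13.4 ± 2.62 CPM (1.03, adjusted p = 0.00284). Tctn2 and Kif17 were lower still in untreated Fl/+ cultures, at 20.7 ± 1.19 and 2.82 ± 0.589 CPM. Arl13b, a membrane GTPase of the cilium, did not pass (-0.08, adjusted p = 0.559). Of the markers of ependymal cells, which bear motile cilia, 5 of 6 were tested and 2 rose, Rsph1 from 2.07 ± 0.584 to 7.10 ± 2.16 CPM (1.78, adjusted p = 7.15e-04) and Ccdc39 from 5.45 ± 0.641 to 8.40 ± 1.62 CPM (0.63, adjusted p = 0.0110).

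Receptors of the growth factors in the medium, and their feedback genes, had 5 of 23 higher and 3 lower, near the background, and 5 were called without Fl/Fl 27, Fl/Fl 39 or Fl/+ 26, or without both Fl/Fl 39 and Fl/+ 36. Egfr itself was at 691 ± 135 against 704 ± 126 CPM (-0.03, adjusted p = 0.910), whereas Fgfr1 rose from 262 ± 28.5 to 386 ± 28.9 CPM (0.56, adjusted p = 0.00109). Erbb3, a neuregulin receptor of the EGF receptor family, was at 3.53, 6.94, 4.04, 14.5 and 3.78 CPM in the Fl/Fl and 2.19, 1.22, 0.685, 1.23 and 1.63 CPM in the Fl/+ libraries. The groups did not overlap, and the highest Fl/Fl value belonged to library 37. Erbb3 thus differed by 2.22 on the log2 scale (SE 0.45, adjusted p = 0.00382). The ERK phosphatase Dusp5 rose from 20.9 ± 4.64 to 39.6 ± 8.23 CPM (0.92, adjusted p = 0.00247) and the ETS factor Etv1 fell from 61.6 ± 7.04 to 39.2 ± 4.12 CPM (-0.65, adjusted p = 8.30e-04), while Spry2 was at 0.05. Of 18 AP-1 and immediate early genes 3 rose and 1 fell. The matricellular protein gene Ccn2 was at 4.68, 3.47, 2.48, 5.93 and 6.54 CPM in the Fl/Fl and 1.27, 0.805, 0.806, 1.09 and 0.992 CPM in the Fl/+ libraries, without overlap (2.21, adjusted p = 3.47e-04). Its relative Ccn1 rose from 27.2 ± 2.88 to 45.1 ± 8.57 CPM (0.73, adjusted p = 0.00213). Jund fell (-0.69, adjusted p = 0.0186, a call lost with the spread of all 15 libraries), and Fos did not pass (0.27).

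In the Notch pathway 2 of 22 genes rose and 9 fell (50%, median -0.25), and 7 were called without Fl/Fl 28 or without both Fl/Fl 39 and Fl/+ 36. Notch1 was at 198, 259, 228, 278 and 256 CPM in the Fl/Fl and 359, 398, 374, 380.4 and 339 CPM in the Fl/+ libraries, all Fl/Fl values being lower. Notch1 thus differed by -0.60 on the log2 scale (SE 0.09, adjusted p = 0.00100). The target gene Hes5 fell from 20.4 ± 6.99 to 10.1 ± 3.32 CPM (-1.01, adjusted p = 0.0176, a call lost with Fl/Fl 39 and Fl/+ 36 both left out), and was at 75 ± 32.1 CPM in untreated Fl/+ cultures, whereas Hes1 was at 0.03. Of 30 Wnt genes 4 rose and 4 fell, of 22 BMP and Id genes 1 rose and 1 fell, and of 22 genes of the NF-kappaB and tumour necrosis factor pathway 4 rose and 1 fell. With Fl/Fl 39 and Fl/+ 36 both left out the Wnt count was 4 and the NF-kappaB count 3. The BMP count was 5 without Fl/Fl 37, 4 without Fl/+ 36 and 1 without any single one of Fl/Fl 27, 28 or 29 or Fl/+ 19, 24 or 35, and the NF-kappaB count was 3 without any single one of Fl/Fl 27, 28 or 39 or Fl/+ 19. In the Wnt list, the receptor Fzd1 rose from 60.7 ± 8.20 to 105 ± 6.16 CPM (0.79, adjusted p = 2.46e-04), the nuclear factor Tcf7 from 5.55 ± 1.19 to 11.7 ± 1.64 CPM (1.08, adjusted p = 0.00115), and the antagonist Nkd2 fell from 2.54 ± 1.28 to 0.846 ± 0.218 CPM (-1.58, adjusted p = 0.00690). Beta-catenin (Ctnnb1) and the target Axin2 were at -0.03 and -0.14 and did not pass. Smad4, shared by BMP and TGF-beta signals, fell (-0.44, adjusted p = 0.00101), Relb rose (0.60, adjusted p = 0.00259) and Tnfaip3, an inhibitor of NF-kappaB, fell (-0.96, adjusted p = 0.00912).

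Interferon-stimulated and antigen presentation genes tended upwards from low levels. Of 26 tested, 11 rose and 2 fell (50%, median 0.45, or 0.30 over genes with at least 10 counts in every library). The count was 8 without Fl/Fl 28 or without Fl/Fl 39, and 7 without Fl/Fl 39 and Fl/+ 36. Usp18, which restrains interferon receptor signalling, was at 0.897, 1.94, 2.14, 1.34 and 2.05 CPM in the Fl/Fl and 0.206, 0.290, 0.242, 0.456 and 0.885 CPM in the Fl/+ libraries. The lowest Fl/Fl value, of library 27, was just above the highest Fl/+ value, of library 36. Usp18 thus differed by 2.00 on the log2 scale (SE 0.41, adjusted p = 0.00411). Ifit1, an antiviral RNA sensor, was at 0.545, 0.486, 0.610, 0.864 and 0.707 CPM in the Fl/Fl and 0.137, 0.0644, 0, 0.211 and 0.283 CPM in the Fl/+ libraries (2.15, adjusted p = 0.00701). These are low levels, since 3 counts correspond to 0.0932 to 0.117 CPM in these libraries. H2-K1 and B2m of the class I complex did not pass (-0.16 and -0.03). The interferon-stimulated response element, searched as GAAA followed after any 2 bases by GAAA, was in 12 of 27 promoter windows of this list (44.4%), in 3.44% of all windows and in 2.74% of those of genes tested. The stretch of Ifit1 is shown as an example, with the element in capitals on the opposite strand.
Ifit1, chr19:34640769-34640908, plus strand: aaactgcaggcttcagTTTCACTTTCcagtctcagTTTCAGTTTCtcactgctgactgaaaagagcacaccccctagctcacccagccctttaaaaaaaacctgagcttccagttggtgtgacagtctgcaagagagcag
The element occurred at 2 places in it.

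The growth cone and axon outgrowth list had 12 of 22 genes lower and 2 higher (63.6%, median -0.64), with 13 to 16 called when single libraries were left out. Dpysl3 (CRMP4), a microtubule-binding protein of growth cones, was at 169.5, 188, 154, 198 and 156 CPM in the Fl/Fl and 506, 515, 505, 444 and 486 CPM in the Fl/+ libraries, with little spread in either group. Dpysl3 thus differed by -1.50 on the log2 scale (SE 0.09, adjusted p = 1.43e-05). Dcx, the microtubule-binding protein of young neurons, was at 6.47, 9.68, 10.9, 9.11 and 3.54 CPM in the Fl/Fl and 78.1, 16.7, 54.9, 29.8 and 46.1 CPM in the Fl/+ libraries. The Fl/+ values spread widely, yet each was above all Fl/Fl values. Dcx thus differed by -2.51 on the log2 scale (SE 0.41, adjusted p = 0.00123). Gap43, the growth-associated protein, fell from 185 ± 68.1 to 71.9 ± 31.6 CPM with overlap (-1.37, adjusted p = 0.00623), and was at 68.4 ± 13.2 CPM in untreated Fl/+ cultures. Members of the PRG family went opposite ways, Plppr3 falling from 8.66 ± 3.59 to 1.29 ± 0.414 CPM (-2.75, adjusted p = 1.77e-04) and Plppr4 rising from 0.531 ± 0.304 to 2.63 ± 1.19 CPM (2.29, adjusted p = 0.00316). Of the 12 neuron markers, Dcx among them, 10 had a fold change below 0, but 2 fell by the test and 1 rose (25.0%, median -0.55), the riser being synaptophysin, Syp (0.57, adjusted p = 0.00454). The summed level of the neuron markers ranged from 731 to 936 CPM in Fl/Fl and from 952 to 1172 CPM in Fl/+ libraries, and their part in the growth cone result was not tested. Of 43 axon guidance genes 2 rose and 6 fell, or 4 in all with Fl/Fl 39 and Fl/+ 36 both left out. Among those that fell were the netrin receptor Dcc (-1.49, adjusted p = 8.98e-04) and the semaphorin receptor Nrp2 (-1.49, adjusted p = 5.07e-04), while Nrp1, Epha4 and Slit1 were at -0.14, -0.02 and 0.18.

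The shares of receptor and channel genes called were below that of all genes (31.7%). Of 27 neurotransmitter receptor genes 1 rose and 3 fell (14.8%). The AMPA receptor subunit Gria1 was at 318 to 493 CPM in the Fl/Fl and 150.3 to 263 CPM in the Fl/+ libraries (0.94, adjusted p = 0.00275), and at 76.4 ± 55.8 CPM in untreated Fl/+ cultures, so it was lowest there. Grin3a, an NMDA receptor subunit, fell from 36.3 ± 7.15 to 14.8 ± 4.11 CPM (-1.29, adjusted p = 0.00102) and the kainate receptor subunit Grik1 from 4.99 ± 1.48 to 1.63 ± 0.548 CPM (-1.61, adjusted p = 0.00170). Of 24 potassium channel genes 2 rose and 3 fell (20.8%), and 8 were called with the mouse number as a covariate. The background channel Kcnk1 rose (1.01, adjusted p = 0.00513), as did Kcnh2 (0.77, adjusted p = 0.00575), and Kcnk10 fell (-1.12, adjusted p = 0.00437).

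Of 10 neural stem cell markers none rose and 3 fell, near the background share, and 1 was called when the spread was estimated from all 15 libraries. Fabp7, a fatty acid binding protein of radial glia and stem cells, was at 2285, 1951, 1568, 1866 and 2082 CPM in the Fl/Fl and 3514, 2335, 3023, 2764 and 3229 CPM in the Fl/+ libraries, without overlap. Fabp7 thus differed by -0.61 on the log2 scale (SE 0.13, adjusted p = 0.00552). Prom1 (CD133) fell from 27.4 ± 5.31 to 17.4 ± 2.45 CPM (-0.65, adjusted p = 0.00709) and Sox2, the stem cell factor, by less (-0.33, adjusted p = 0.0268), and nestin, Nes, did not pass (-0.32, adjusted p = 0.282). The calls of Prom1 and Sox2 were lost with the spread of all 15 libraries, and that of Sox2 in 6 of 20 alternative settings in all. Of 11 Sox factors none rose and 5 fell (45.5%, median -0.24, or -0.37 without Fl/+ 24 and -0.14 without Fl/+ 26), among them Sox11 (-0.54, adjusted p = 0.00690) and Sox5 (-0.66, adjusted p = 0.00294), while Sox4 was at -0.05. Of 20 regional patterning factors 2 fell, or 1 without any single one of Fl/Fl 27, 28 or 39 or Fl/+ 19, 24 or 26. They include Gsx1, a factor of the ganglionic eminence lineage, from 27.9 ± 6.83 to 13.3 ± 3.65 CPM (-1.07, adjusted p = 0.00425), with 11.8 ± 2.87 CPM in untreated Fl/+ cultures. Dlx2 did not pass (-0.60). Among 7 astrocyte markers Aldoc rose (0.38, adjusted p = 0.00440), and 3 were called without Fl/Fl 37. Gfap varied from 239 to 2299 CPM in the Fl/Fl and from 64.8 to 1285 CPM in the Fl/+ libraries and did not pass (0.48, adjusted p = 0.687). None of 12 oligodendrocyte lineage markers was called by edgeR, 3 had an unadjusted p under 0.05 and 1 was called by the DESeq2 Wald test. The count was 1 without any single one of Fl/Fl 37, Fl/Fl 39, Fl/+ 19 or Fl/+ 26. Their median of 0.83 fell to -0.11 without Fl/Fl 37, in which the myelin gene Mbp was at 1029 CPM against 83.5 to 159 CPM in the other Fl/Fl libraries. The summed level of the 12 oligodendrocyte markers ranged from 3481 to 5815 CPM in Fl/Fl and from 3297 to 4874 CPM in Fl/+ libraries. The summed level of the 7 astrocyte markers ranged from 3245 to 6618 CPM in Fl/Fl and from 3775 to 4751 CPM in Fl/+ libraries. Their part in the other changes was not tested. The markers of microglia and blood that were tested, 2 of 10, summed to 3.72 to 7.58 CPM in the Fl/Fl and to 2.45 to 3.97 CPM in the Fl/+ libraries, and 1 of them, Cd68, rose. Both were called without Fl/+ 26 or 36, and Cd68 lost its call with Fl/Fl 39 and Fl/+ 36 both left out. None of the 4 tested markers of endothelial and mural cells was called by edgeR or by DESeq2, and 0 had an unadjusted p under 0.05.

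Matrix and adhesion genes were near the background as lists but held large single changes. Of 26 collagens 4 rose and 2 fell. Col9a3, a chain of collagen IX, was at 63.3, 58.5, 61.8, 61.7 and 66.2 CPM in the Fl/Fl and 25.5, 20.4, 25.2, 29.9 and 23.1 CPM in the Fl/+ libraries, without overlap. Col9a3 thus differed by 1.33 on the log2 scale (SE 0.10, adjusted p = 2.74e-05). Of 24 proteoglycans and other matrix proteins 4 rose and 4 fell. Matn1, a cartilage matrix protein, was at 2.53, 2.85, 8.31, 3.5 and 0.920 CPM in the Fl/Fl and 0.377, 0.0322, 0.524, 0.0351 and 0.248 CPM in the Fl/+ libraries, so that the Fl/Fl values spread widely and the Fl/+ values lay near the floor (3.91, adjusted p = 0.00236). Versican, Vcan, a chondroitin sulfate proteoglycan of neural progenitors, fell from 169.8 ± 35.4 to 67.9 ± 14.1 CPM (-1.32, adjusted p = 3.12e-04), whereas Tnc did not pass (-0.16). Of 24 integrin and laminin genes 2 rose and 5 fell, with 4 called without Fl/Fl 27, 29 or 39. Itga6, a laminin receptor of neural stem cells, was at 55.3, 63.2, 49.3, 50.9 and 66.6 CPM in the Fl/Fl and 161, 164, 147, 150.0 and 113 CPM in the Fl/+ libraries (-1.37, adjusted p = 5.51e-05), and its partner Itgb1 was at 0.00. Of 24 metalloprotease and TIMP genes 1 rose and 5 fell. The largest fall was that of Adam19, a membrane-bound protease, at 16.1, 24.4, 18.0, 12.5 and 12.9 CPM in the Fl/Fl and 99.8, 75, 80.6, 56.5 and 62.9 CPM in the Fl/+ libraries. Adam19 thus differed by -2.16 on the log2 scale (SE 0.21, adjusted p = 8.90e-05).

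In the lists of Polycomb, DNA methylation and histone genes more members fell than rose. Of 28 Polycomb genes 2 rose and 7 fell, close to the background in number. Cbx2, a chromodomain subunit of PRC1, was at 7.88, 8.29, 8.44, 6.44 and 9.51 CPM in the Fl/Fl and 25.4, 20.2, 22.6, 20.2 and 22.1 CPM in the Fl/+ libraries, without overlap. Cbx2 thus differed by -1.44 on the log2 scale (SE 0.12, adjusted p = 4.96e-05). Ezh2, the H3K27 methyltransferase, fell from 113 ± 18.1 to 64.7 ± 13.7 CPM (-0.81, adjusted p = 0.00330), as did Bmi1 of PRC1 (-0.55, adjusted p = 9.23e-04) and Kdm6b, a demethylase that removes the mark (-0.73, adjusted p = 0.00327). Of 16 genes of DNA methylation and imprint keeping none rose and 7 fell (43.8%, median -0.27), and 11 were called with the mouse number as a covariate. Zfp57, a zinc finger protein that keeps methylation at imprinted loci, was at 4.04, 3.16, 6.24, 2.51 and 1.77 CPM in the Fl/Fl and 31.6, 16.3, 29.5, 12.8 and 15.4 CPM in the Fl/+ libraries, without overlap. Zfp57 thus differed by -2.57 on the log2 scale (SE 0.37, adjusted p = 6.02e-04). Its partner Trim28 fell by less, from 419 ± 9.55 to 340.2 ± 34.9 CPM (-0.30, adjusted p = 0.0138). Uhrf1, which brings DNMT1 to replicated DNA, fell (-0.90, adjusted p = 0.00902), as did the dioxygenases Tet2 and Tet3 (-0.61 and -0.61), while Dnmt1 did not pass (-0.22, adjusted p = 0.217). Of 24 imprinted genes none rose and 6 fell (25.0%), and 3 were called without Fl/Fl 27 or without both Fl/Fl 39 and Fl/+ 36. Nnat (-1.13, adjusted p = 0.00395) and Usp29 (-0.96, adjusted p = 0.00649) fell, and Peg3, Meg3 and H19 did not pass (0.01, 0.59 and 1.02). The value of H19 ranged from -0.34 to 1.52 over the 20 alternative settings.

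Of 17 genes listed as replacement histones 3 rose and 7 fell (58.8%, median -0.34). The list also holds the Hist1 cluster genes Hist1h2bc and Hist1h1c, which are not replacement variants. The macroH2A gene H2afy2 was at 31.7, 32.8, 34.4, 27.8 and 24.4 CPM in the Fl/Fl and 88.5, 66.3, 81.3, 66.3 and 69.9 CPM in the Fl/+ libraries, without overlap. H2afy2 thus differed by -1.30 on the log2 scale (SE 0.12, adjusted p = 5.85e-05). The histone genes Hist1h2bc and Hist1h1c, which yield polyadenylated transcripts, rose to 50.3 ± 19.2 and 78.7 ± 39.0 CPM (1.26, adjusted p = 0.00455, and 1.23, adjusted p = 0.0190). They were at 46.5 ± 11.2 and 137 ± 40.5 CPM in untreated Fl/+ cultures, nearer to the Fl/Fl than to the treated Fl/+ levels (21.0 ± 5.90 and 33.6 ± 13.0 CPM). Of 17 circadian clock genes 2 rose and 1 fell, with 1 called without Fl/Fl 28, without Fl/+ 36 or without both Fl/Fl 39 and Fl/+ 36. Nr1d2 was among those that rose (0.52, adjusted p = 0.00518), and Per2 and Dbp were at 0.07 and 0.05.

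Several of the largest changes, taken among genes whose mean was 1 CPM or more and whose groups did not overlap, stand outside these pathways. After Matn1 and Gli1, the largest rises were in Rprml (3.18, adjusted p = 0.00654), Klri1, a receptor of natural killer cells (3.05, adjusted p = 0.00325), Sftpc, surfactant protein C (3.04, adjusted p = 0.00136), Eldr (2.88, adjusted p = 2.69e-04), the precursor of cornified envelopes Scel (2.63, adjusted p = 0.00343) and Klrb1a (2.62, adjusted p = 9.99e-04). Klri1 and Rprml were at 2.91 ± 1.43 and 3.35 ± 2.13 CPM in the Fl/Fl group, at 0.349 ± 0.299 and 0.365 ± 0.383 CPM in the Fl/+ group and at 1.78 ± 1.24 and 2.07 ± 2.09 CPM in untreated Fl/+ cultures. Eldr, a noncoding transcript (chromosome 11, minus strand, annotated as a processed transcript) beyond the 3′ end of Egfr, was at 53.3, 25.5, 40.4, 28.6 and 76.3 CPM in the Fl/Fl and 4.32, 6.41, 3.51, 9.37 and 6.69 CPM in the Fl/+ libraries. It rose with a clear gap between the groups, while Egfr did not pass the test. Large falls were in 2610318N02Rik (-2.99, adjusted p = 1.30e-04), Plppr3, March1, a ubiquitin ligase of membrane proteins (-2.73, adjusted p = 4.02e-04), Zfp57, Dcx, the pseudogene Gm7809 (-2.37, adjusted p = 0.0170) and Stmn4, a neural stathmin (-2.35, adjusted p = 0.00182). For abundant genes, with means of 50 CPM or more, the largest rise was that of Lpo, lactoperoxidase, at 497, 327, 272, 283 and 509.7 CPM in the Fl/Fl and 103, 58.9, 93.0, 128.7 and 72.9 CPM in the Fl/+ libraries. Lpo thus differed by 2.05 on the log2 scale (SE 0.25, adjusted p = 2.65e-04). It was followed by Abca1, the zinc transporter Slc39a12 (1.38, adjusted p = 0.00103), Pcdhgc5, a clustered protocadherin that shares exons with its neighbours (1.37, adjusted p = 0.00426), and Hmox1. Slc39a12 was at 115 ± 67.7 CPM in untreated Fl/+ cultures, against 90.8 ± 32.0 CPM in Fl/Fl and 34.8 ± 5.15 CPM in treated Fl/+ cultures. Pcdhgc5 was lowest in untreated Fl/+ cultures (15.4 ± 13.5 CPM). The largest falls were in Bcat1, which transaminates branched-chain amino acids (-1.80, adjusted p = 1.77e-04), Mex3a, an RNA-binding protein of stem cells, at 40.6, 36.9, 40.8, 31.2 and 28.3 CPM in the Fl/Fl and 125, 103, 125, 106 and 109 CPM in the Fl/+ libraries (-1.67, adjusted p = 2.00e-05), the surface protein Cd24a of neural progenitors (-1.66, adjusted p = 2.30e-04), Narf (-1.62, adjusted p = 2.09e-04) and the phosphatase inhibitor Ppp1r14b (-1.53, adjusted p = 4.21e-05). The call of Gm7809 was lost with Fl/Fl 39 and Fl/+ 36 both left out, and the other calls given in this paragraph held in every alternative setting in which the gene was tested. That was all 20 settings or, for Matn1, Gli1, Rprml, Klri1, Sftpc, Scel, Klrb1a and 2610318N02Rik, the 19 that did not ask for at least 10 counts in every library.

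Changes also differed by type of gene. Protein-coding genes were called in 33.2% of 13235 cases, with 2256 higher and 2138 lower. Of 329 genes annotated as antisense 99 were called (30.1%), and 90 of these rose and 9 fell. Of 68 noncoding transcripts from bidirectional promoters 20 were called, 19 higher and 1 lower, and of 370 lincRNAs 99, of which 74 rose and 25 fell. Processed pseudogenes were called in 30 of 452 cases (6.64%), and 27 of the 30 were lower. Their levels are uncertain, since they resemble their parent genes and reads that match several places were not counted. Scaled only by library totals, antisense genes had 96 higher and 7 lower, and processed pseudogenes 4 higher and 22 lower. Expression level moved with the split among coding genes. Of called coding genes with a mean under 1 CPM 74.3% were higher, of those from 1 to 10 CPM 65.4% and of those over 10 CPM 47.4%. For antisense genes the shares were 90.9% of 44, 90.2% of 51 and 4 of 4. The reads were counted by strand. Of the 90 antisense genes that rose, 83 overlapped a tested coding gene on the other strand, in 94 pairs. The coding partner rose in 17 pairs, fell in 22 and was not called in 55.

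**Figure D4:**
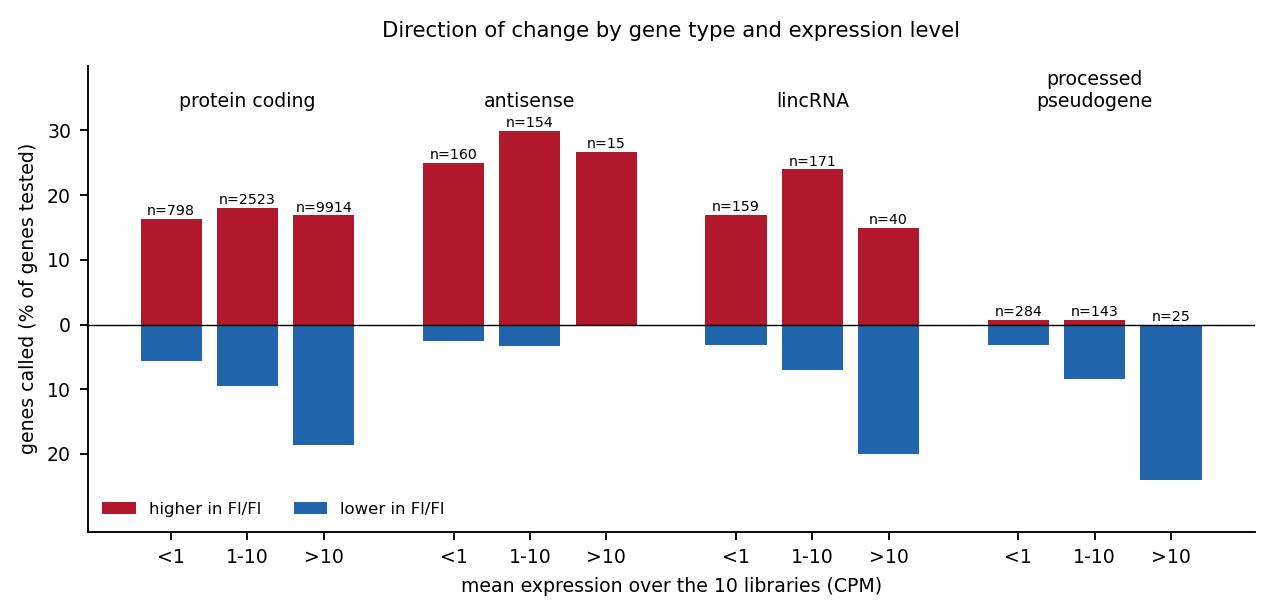
Share of tested genes that were called higher (red, upwards) or lower (blue, downwards) in Fl/Fl cultures, in percent, by annotated gene type and by mean expression over the 10 libraries in CPM. Numbers above the bars are genes tested. Antisense genes have high red and short blue bars at every level, and processed pseudogenes mostly blue bars.

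Fl/Fl and Fl/+ mice could differ along the chromosome that carries the floxed allele, so genes within 5 Mb of Trrap were counted. Of 101 tested, 34 were called (33.7%), against 31.7% of all genes. Within 2 Mb the share was 32.7% and within 10 Mb 29.9%. Whether these shares differ from that of all genes was not tested.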

How the data were processed

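Stranded poly(A) RNA libraries were sequenced, and the authors demultiplexed reads with bcl2fastq 1.8.4, aligned them to GRCm38 with STAR 2.5.4b and counted unique reads per gene by strand with featureCounts 1.5.0. The deposited values are these raw counts, not normalized, for 15 libraries. Of 53801 gene IDs, 53706 matched the GENCODE vM21 annotation used here for names, types and positions. The filterByExpr function removed genes with low counts (10 counts as its limit), TMM scaled the libraries, and Fl/Fl was set against Fl/+ with edgeR 4.0.16 (quasi-likelihood F test, Benjamini-Hochberg adjustment over all genes tested) in R 4.3.3. The test was first tested on simulated data. At these depths 3 counts correspond to 0.0932 to 0.117 CPM, which covers counting error only. A separate culture from each mouse is 1 replicate. The exact two-sided permutation test for Trrap used log2(CPM + 0.5) and all 252 arrangements, with 0.00794 as the smallest p it allows. The 52 gene lists were chosen with earlier results of these data known, so they are described by counts and medians without a test. Genes named are Trrap, the 8 largest changes each way with a mean of at least 1 CPM and no overlap, the 5 largest each way from 50 CPM, and from each list up to 4 called members with the largest changes and set reference members. Sox2, Kat2b, Hadha and Cd68 were added or kept after their values were seen. Some genes that this rule names, 1 of the largest falls among them, are not reported here. Promoters came from RefSeq (GRCm38.p6), matched by symbol for 11019 genes tested. The alternatives were DESeq2 1.42.0, other scalings, filters, dispersions and covariates, and each library left out. Labelled sex disagreed with sex-linked genes, and the 2 alternatives for it were chosen after seeing the data.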

Additional observations from a re-analysis of the deposited data

Results flagged for a closer look

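Each of the following library values lay far from the other 4 of its group, by a gap that exceeds Dixon's critical ratio of 0.71 for 5 samples. There were 33 such values among 494 groups of 5 examined, and chance gives about 1 in 20. No cause was tested.

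Library Fl/Fl 37, the only Fl/Fl library with almost no Y-linked expression, held the most. It was the highest of its group for the glial and myelin genes Gfap (2299 CPM) and Mbp (1029 CPM), for the imprinted RNA H19 (341.8 CPM), for the neuronal genes Gap43 (126.4 CPM), Stmn4 (18.42 CPM) and Plppr3 (2.003 CPM), for the motor gene Kif5c (47.24 CPM) and for Usp22 (200.8 CPM). Its median over the proteoglycan and matrix list was 0.6298 and over the sterol sensing list 0.3504, both the highest, and over the Trrap complex list -0.17, the lowest, each on the log2 scale relative to the Fl/+ mean. Library Fl/Fl 29 stood apart for the motor gene Kif1a (503.1 CPM), the interneuron factor Dlx2 (7.696 CPM), the ATP synthase subunit Atp5b (1226 CPM), and in the medians of the Notch list (-0.08418) and the regional list (0.1822). Slit1 in Fl/Fl 27 (14.71 CPM), Bmi1 in Fl/Fl 39 (61.53 CPM) and the neuron marker median in Fl/Fl 39 (-0.6483) were also apart.

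Among the Fl/+ cultures, library 26 stood apart for the cell cycle genes E2f7 (15.16 CPM) and Brca1 (24.19 CPM), for Sqle (245.5 CPM), Slc7a1 (66.88 CPM) and Relb (16.09 CPM), and in the mitosis median (-0.433), which lay within the Fl/Fl range. Library 24 stood apart for the lipid synthesis genes Elovl6 (227 CPM), Acss2 (226.1 CPM) and Scd1 (1168 CPM), for the mitotic motor Kifc1 (38.72 CPM), for H2-K1 (162 CPM) and in the collagen median (-0.2941). Library 36 stood apart for Mbp (283.5 CPM) and Bbs1 (24.29 CPM).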

How the results depend on the processing

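The count of called genes ranged from 3511, with Fl/Fl 39 and Fl/+ 36 left out, to 5474 with the DESeq2 Wald test, and from 3772 to 4734 with single libraries left out. Of 148 called genes named here, 122 were called under all 20 alternatives, 12 were called under the 19 in which they were tested, 14 lost the call in at least 1, and none changed direction. With at least 10 counts in every library the median log2 fold change was -0.20 for fatty acid genes and 0.44 for endothelial markers. With Fl/Fl 39 and Fl/+ 36 left out it was 0.17 for BMP genes, 0.22 for endothelial and 0.26 for ependymal markers, -0.36 for Sox factors and 0.10 for neurotransmitter receptors, and with sex read from Kdm5d 0.31 for sterol sensing genes. The cause of these shifts was not tested. With single libraries left out, medians ranged from 0.14 to 0.33 for sterol sensing, -0.188 to -0.0841 for fatty acid, -0.0324 to 0.0616 for nuclear respiratory chain, -0.28 to -0.17 for Notch, -0.14 to 0.12 for BMP, -0.37 to -0.15 for neural stem cell, -0.68 to -0.41 for neuron, -0.17 to 0.39 for astrocyte, -0.11 to 1.03 for oligodendrocyte, 0.84 to 1.41 for microglia, 0.16 to 0.44 for endothelial, 0.31 to 0.58 for ependymal, -0.37 to -0.14 for Sox, -0.00699 to 0.24 for collagen, -0.12 to -0.00627 for metalloprotease, -0.18 to -0.12 for Polycomb, -0.33 to -0.11 for imprinted and 0.10 to 0.24 for NF-kappaB genes. The BMP, astrocyte, oligodendrocyte, collagen, proteoglycan and chaperone medians were below 0 without Fl/Fl 37, and that of the respiratory chain without Fl/Fl 27, Fl/+ 19 or Fl/+ 36. Other medians near 0 also changed sign in some settings. No paired analysis was possible because the Fl/Fl and Fl/+ cultures given 4-OHT came from different mice and share no replicate number.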
